A study of Mus musculus with 8 samples.

Results

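Round spermatids were set against pachytene spermatocytes in testes of Alkbh5-/- mice (KO), which lack the RNA demethylase ALKBH5, by input RNA counts and by peaks of N6-methyladenosine (m6A). The comparison uses 4 of the 8 samples of the series: 1 input and 1 immunoprecipitated sample for each of the KO fractions labelled PA and RO, which the series title gives as pachytene spermatocytes and round spermatids. All mice were 12-week-old C57BL/6 animals, and every sample is labelled as spermatogenic cells from testes. The WT mice, with both fractions treated in the same way, are given beside the KO values as a description. The method was MeRIP-seq, in which fragmented total RNA is pulled down with an antibody against m6A and sequenced next to the unselected input. The labels give neither the way in which the cells were separated nor the number of animals in a sample. With 1 library on each side no difference below has a replicate check and no test was possible.

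Pachytene spermatocytes are in meiotic prophase, when paired homologous chromosomes are held together by the synaptonemal complex and exchange DNA. Round spermatids are the haploid cells that follow the meiotic divisions; they build the acrosome and the tail, and later replace histones with transition proteins and protamines. Many messenger RNAs of both stages are made well before they are translated. The m6A mark is written by a methyltransferase complex around METTL3 and METTL14, bound by proteins of the YTH family, and removed by ALKBH5 or FTO. Loss of ALKBH5 in mice is known for defective sperm and reduced male fertility.

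Input counts were read for 53465 genes, with 9921365 counts in the KO PA library and 10152198 in the KO RO library (13147239 in WT PA and 12084838 in WT RO). Ratios were formed only for the 12956 genes with 100 or more counts in either KO library, after scaling the libraries for depth and composition. Symbols come from the peak lists, so the 6788 of these genes that could be named all carry a peak in at least 1 of the 4 lists of the series, and a gene without any peak is unnamed here. Alkbh5 itself is not analysed here for this reason, and the genotype was not checked on its counts. At the edge of the count limit the values did not separate: of 261 genes whose larger KO count was 100 to 104, 30.3% lay past 2-fold, and of 256 genes just outside, at 95 to 99, 30.1% did.

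The stage labels were first set against marker genes. Of 43 round spermatid markers 21 had a symbol and enough counts, and their median log2 ratio of RO over PA was 0.43, with 18 of 21 above 0. Of 26 pachytene markers 11 could be read, and their median log2 ratio was 0.11, with 8 of 11 above 0 and none at least 2-fold apart. So the spermatid side of the label had its markers higher in the RO library, while the meiotic side did not have its markers lower there. The same genes had median log2 ratios of 1.09 and -0.03 in WT; whether KO and WT differ was not tested. The fractions are therefore named by their labels, PA and RO, throughout. In bulk RNA fewer cells of a type and less RNA per cell cannot be told apart.

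Among the round spermatid markers, Tnp2, which encodes a transition protein of the condensing nucleus, had 599 counts in KO PA and 1391 in KO RO, against 162 and 218 in WT PA and WT RO. It was the more abundant of the 2 markers past 2-fold, with a ratio of 2.29 (95% exact binomial interval 2.08 to 2.53, counting error only, as for all intervals of ratios here). Tssk2, a kinase of spermatids, was the other, with 156 and 332 counts in KO and 69 and 63 in WT, a ratio of 2.10 in KO (1.73 to 2.56). Akap4, the main scaffold of the fibrous sheath of the tail, had 1270 and 2546 counts in KO and 293 and 903 in WT, and its KO ratio of 1.98 (1.85 to 2.12) lay just below 2-fold. Prm2, a protamine, had 2053 and 3730 counts in KO and 947 and 1226 in WT, a KO ratio of 1.79 (1.70 to 1.89). Odf1, of the outer dense fibres, had 949 and 1705 counts in KO and 321 and 582 in WT, a KO ratio of 1.77 (1.64 to 1.92). All of these were higher in RO than in PA in both genotypes except Tssk2, which was nearly level in WT.

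Other members of the same marker list hardly differed between the KO libraries. Actl7b, an actin-related protein of the sperm head, had 1193 and 1317 counts in KO PA and KO RO against 436 and 965 in WT. Catsper1, a subunit of the sperm calcium channel, had 842 and 823 counts in KO and 737 and 1502 in WT. Akap3, a partner of Akap4 in the fibrous sheath, had 1592 and 1884 counts in KO and 573 and 1226 in WT. For these 3 genes the KO PA count was already close to the KO RO count. The summed level of the 22 named markers was 1594 CPM, that is, counts divided by the scaled library size, in KO PA, 2349 in KO RO, 973 in WT PA and 1679 in WT RO, so that the KO PA library stood close to WT RO. Tssk3, Actrt3 and Catsper1 were the 3 markers with a KO log2 ratio below 0 (-0.17, -0.05 and -0.05).

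The pachytene markers were high in both KO libraries. Sycp2, of the chromosome axis, had 8932 counts in KO PA and 10184 in KO RO, against 20841 and 17483 in WT. Sycp1, the transverse filament of the synaptonemal complex, had 3666 and 4759 counts in KO and 4219 and 4192 in WT. Syce1, of its central element, had 619 and 1170 counts in KO and 1810 and 1292 in WT, the largest ratio of the list in KO at 1.87 (1.69 to 2.06). Sycp2 and Syce1 thus stood higher in RO than in PA in KO and lower in WT. The other extreme was Mlh3, a crossover factor, with 915 and 637 counts in KO and 1247 and 918 in WT.

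**Figure D1:**
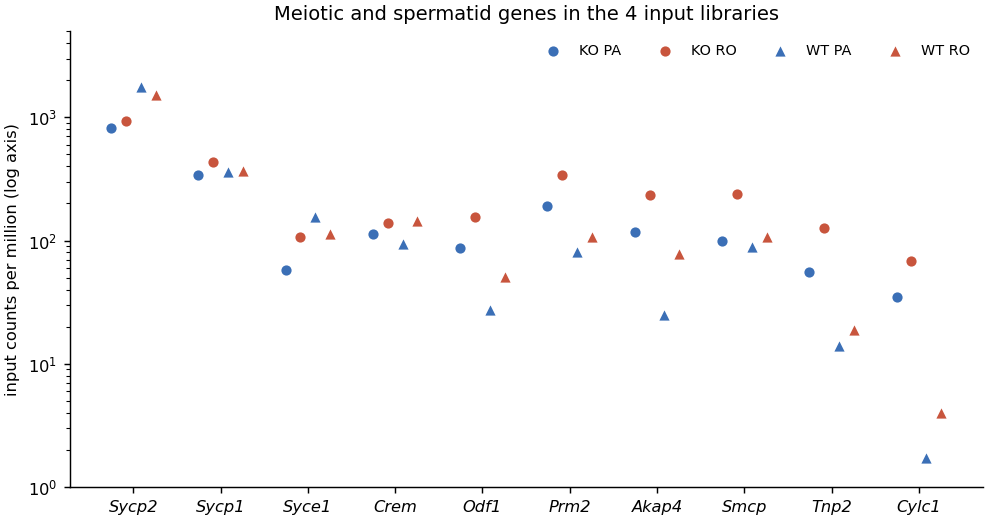
Input level of 10 meiotic and spermatid genes in CPM on a log axis, 1 point per library (circles KO, triangles WT, blue PA, red RO; no error bars, as each group is 1 library). The spermatid genes from Crem to Cylc1 stand higher in KO RO than in KO PA, with Tnp2 at 127 against 55.4 CPM and Akap4 at 232 against 117 CPM, and the meiotic genes Sycp2, Sycp1 and Syce1 do so as well.

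Markers of other cells of the testis moved in both directions between the KO libraries. The 7 named Sertoli markers summed to 332 CPM in KO PA and 212 in KO RO, led by Clu with 1805 and 1166 counts and Wt1 with 1356 and 742. Of the 5 Sertoli markers with enough counts, 1 was higher in RO, at a log2 ratio of 0.38. Their median was -0.49, and none was past 2-fold. Of 6 named Leydig markers, Hsd3b1 (207 and 78 counts) and Cyp11a1 (226 and 105), both enzymes of steroid synthesis, were lower in RO, while the list summed to 123 and 112 CPM. Of the 5 Leydig markers with enough counts, 3 had a log2 ratio above 0, and the median was 0.05. The spermatogonial list summed to 96.3 and 62.1 CPM, with Id4 at 351 and 163 counts and Zbtb16 at 559 and 290. Only 3 spermatogonial markers had enough counts, and 1 of them was higher in RO, at a log2 ratio of 0.50. Endothelial markers (453 and 434 CPM), peritubular myoid markers (298 and 259 CPM) and macrophage markers (79.9 and 90.8 CPM) were closer to level. Of all these lists, Egr4 of the spermatogonial list was at 0 in both KO libraries, and Trf of the Sertoli list had 17 counts in PA and 0 in RO. The part of these cells in the ratios below was not tested.

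Across all 12956 genes the KO libraries were close. The median log2 ratio was -0.02, and 50% of the genes lay between -0.37 and 0.34. At least 2-fold higher in RO were 744 genes (5.74%), and at least 2-fold lower were 765 (5.9%). Among the 6788 named genes the shares were 4.07% higher and 4.12% lower, and 48.2% had a log2 ratio above 0; these are the shares against which each list is read. The spread narrowed with depth: its robust SD (scaled median absolute deviation) on the log2 scale was 0.75 for genes of 100 to 300 counts, with 21.0% past 2-fold, and 0.26 for genes of 3000 or more, with 0.60% past 2-fold. Counting error alone would give 0.18 and 0.03 in these ranges. In WT the robust SD in the same ranges was 0.93 and 0.39.

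Genes that were apart in KO tended to lie on the same side in WT. Of 516 genes at least 2-fold higher in KO RO with 100 or more counts in a WT library as well, 76.6% had a WT log2 ratio above 0, against 48.1% of all 11639 such genes. Of 513 genes at least 2-fold lower, 69.4% were below 0 in WT. At least 2-fold in the same direction in WT were 185 of the higher and 141 of the lower genes, and 35 and 28 were at least 2-fold in the opposite direction. The WT libraries share no sample with the KO libraries.

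**Figure D2:**
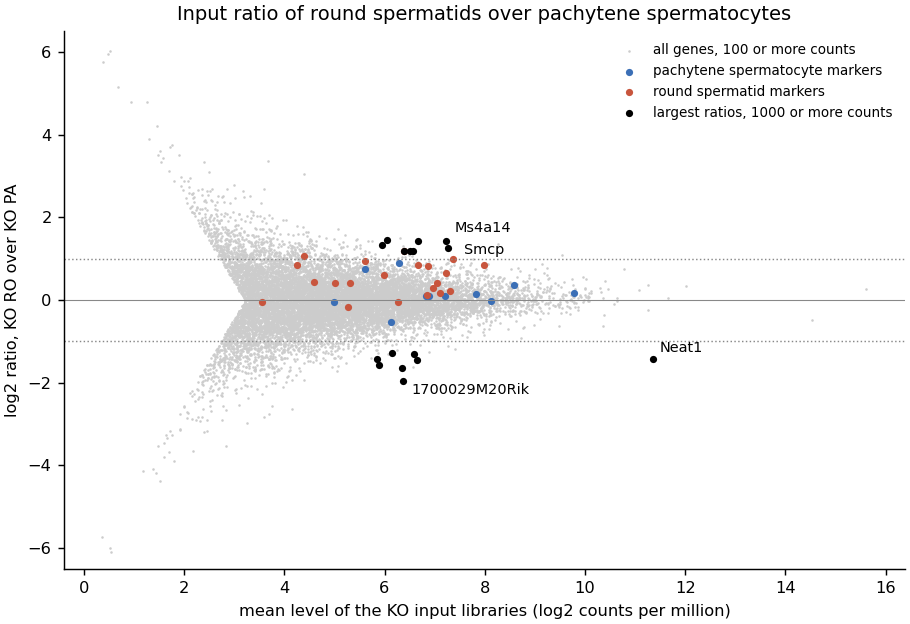
Log2 ratio of KO RO over KO PA input (vertical) against the mean level of both libraries in log2 CPM (horizontal), 1 point per gene with 100 or more counts in either library; dotted lines mark 2-fold. The cloud narrows from a robust SD of 0.75 at low counts to 0.26 at high counts, the red spermatid markers lie mostly above 0, the blue pachytene markers lie around 0, and Neat1 stands apart at -1.43.

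Genes of the sperm tail carried the clearest shift to the RO library among the gene lists. Of 53 listed genes of the tail, fibrous sheath and outer dense fibres, 36 could be read; 27 of 36 had a log2 ratio above 0, 4 were at least 2-fold higher, none was lower by that much, and the median was 0.45 (0.70 for the same genes in WT). This list shares 16 genes with the round spermatid markers and is not a separate observation from them. Smcp, a cysteine-rich protein of the mitochondrial sheath, had 1071 counts in KO PA and 2591 in KO RO, against 1046 and 1226 in WT, a KO ratio of 2.39 (2.22 to 2.57). Actl9, an actin-like gene of spermatids, had 69 and 207 counts in KO and 72 and 99 in WT. Tcp11x2 had 169 and 360 counts in KO and 91 and 101 in WT. For Smcp, Actl9 and Tcp11x2 the KO RO library stood above the other 3. Cylc1, of the cytoskeletal calyx of the sperm head, was different, with 378 and 743 counts in KO and only 20 and 46 in WT, so that both KO libraries stood far above both WT libraries.

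The other lists of spermatid structures shifted less. The acrosome list had a median log2 ratio of 0.05, with 14 of 23 genes above 0, none past 2-fold higher and 1 lower. That gene was Prss21, a membrane-bound serine protease, with 100 and 33 counts in KO and 235 and 314 in WT. Crisp2, a sperm protein of the acrosome, had 1218 and 2394 counts in KO and 2233 and 2155 in WT. Spam1, the sperm hyaluronidase, had 514 and 950 counts in KO and 335 and 960 in WT. The manchette and nuclear shaping list had a median of 0.21, with 20 of 28 above 0 and none past 2-fold; Klhl10, a ubiquitin ligase adaptor of spermatids, had the largest ratio, 411 and 729 counts. At the other end of that list Syne2, a linker of nucleus and cytoskeleton, had 17601 and 11613 counts in KO and 21136 and 12913 in WT.

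Nuclear condensation and histone replacement had a median log2 ratio of 0.15, with 15 of 23 genes above 0 and only Tnp2 past 2-fold. Nutm1, which recruits a histone acetyltransferase in spermatids, had 331 and 638 counts in KO and 351 and 717 in WT. Brdt, the bromodomain protein of the testis, had 2510 and 3649 counts in KO and 6753 and 5592 in WT. Chd5, a chromatin remodeller of spermatids, had 5560 and 8058 counts in KO and 5140 and 11500 in WT. Brdt was lower in RO than in PA in WT, while Nutm1 and Chd5 were higher in RO in both genotypes.

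Regulators and enzymes of spermatids were mixed. Among 23 transcription regulators the median log2 ratio was 0.07; Trim66, a nuclear protein of spermatids, was the 1 gene past 2-fold, with 275 and 594 counts in KO and 453 and 997 in WT. Sox30, a transcription factor of round spermatids, had 478 and 880 counts in KO and 584 and 745 in WT. Crem, a master regulator of post-meiotic genes, had 1225 and 1518 counts in KO and 1107 and 1665 in WT. Among 16 glycolysis and sperm energy genes the median was -0.01. Aldoart1, a testis-specific aldolase, was past 2-fold with 147 and 418 counts in KO and 128 and 302 in WT. Cox8c, a testis form of a respiratory chain subunit, went the other way in KO (433 and 242 counts) and not in WT (84 and 215).

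No member of the meiotic lists was past 2-fold between the KO libraries. The synaptonemal complex and axis list leaned to the RO side, with a median log2 ratio of 0.18. Of its 10 genes 8 were above 0 (80%), against 48.2% of all named genes. The other meiotic lists were nearly level. Meiotic recombination and DNA repair had a median of -0.01 with 14 of 32 above 0, and meiotic division and spindle -0.01 with 12 of 25 above 0. Brip1, a helicase of DNA repair, had 273 and 538 counts in KO and 235 and 234 in WT, the largest ratio of the recombination list. Ercc4, a repair nuclease, had 608 and 330 counts in KO and 712 and 476 in WT. Ccnb3, a cyclin of meiosis, had 135 and 256 counts in KO and 107 and 91 in WT. Incenp, of the chromosomal passenger complex, had 1809 and 1198 counts in KO and 1884 and 1764 in WT.

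The lists of RNA regulation also had no member past 2-fold. The piRNA list had a median of -0.04 (8 of 18 above 0); Henmt1, the methyltransferase of piRNA ends, had 220 and 116 counts in KO and 209 and 145 in WT. mRNA storage, poly(A) and translation control had a median of -0.04 (29 of 60 above 0), with Cnot6l, a deadenylase, at 1053 and 678 counts and Paip2b, a regulator of poly(A) binding protein, at 783 and 1147. For the writers, erasers and readers of m6A the median was -0.10, and 8 of 23 were above 0. The readers Ythdf1, Ythdf2 and Ythdf3 were all lower in KO RO: Ythdf1 had 376 and 230 counts, Ythdf2 439 and 322, and Ythdf3 1430 and 908. In WT they went the same way by less, with log2 ratios of -0.15, -0.03 and -0.40 against -0.72, -0.46 and -0.67 in KO. The strongest member on the other side was Fxr1, an RNA-binding protein of translation control, with 3232 and 4308 counts in KO.

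**Figure D3:**
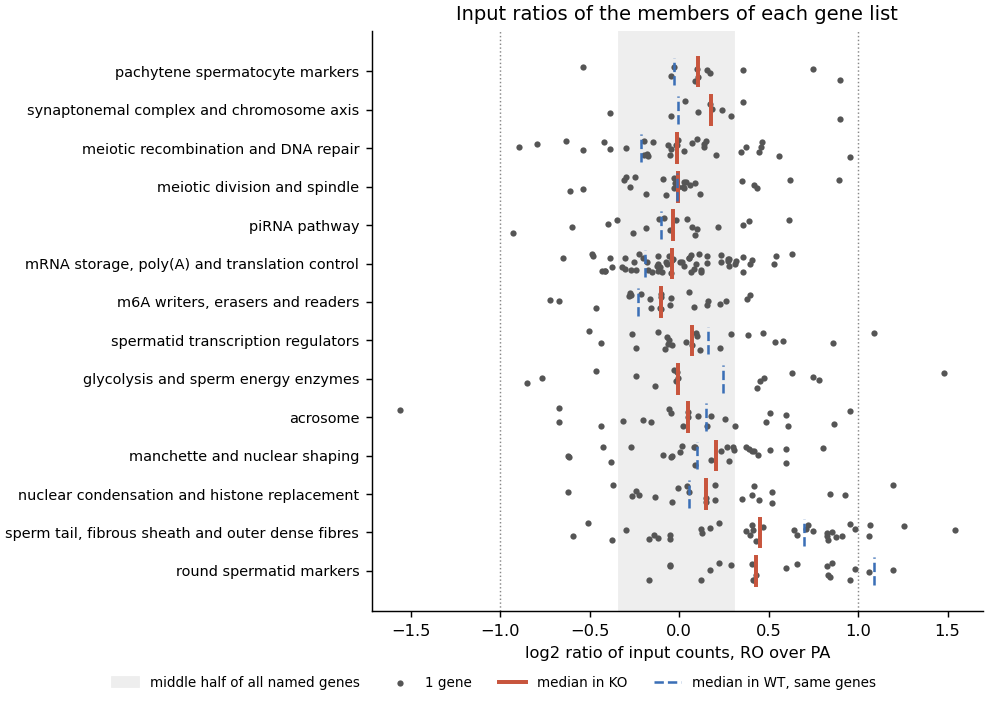
Log2 ratio of RO over PA input for every member with 100 or more counts, by gene list (grey points KO; red bar KO median; blue dashed bar WT median of the same genes; shading, the range from the first to the third quartile of all named genes in KO; dotted lines, 2-fold). Tail genes and round spermatid markers have KO medians of 0.45 and 0.43, while the medians of the meiotic and RNA lists lie within the shading.

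Broad gene families, chosen by name pattern, showed more genes past 2-fold on the lower side for transcription factors. Of 258 zinc finger genes 17 (6.59%) were at least 2-fold lower in RO and 4 (1.55%) higher, with 96 above 0 and a median log2 ratio of -0.13, against 4.12% and 4.07% of all named genes. Zfp85 had 160 and 36 counts in KO and 66 and 116 in WT, and Zbtb42 had 115 and 5 counts in KO and 100 and 182 in WT, so neither was lower in WT. Zfp668, with 145 and 40 counts in KO and 52 and 38 in WT, was lower in RO in both genotypes. Zfp248 was higher in RO in KO, with 25 and 103 counts, against 110 and 119 in WT. Of 64 genes of the transcription machinery 5 were at least 2-fold lower and none higher; Polr3g, a subunit of RNA polymerase III, had 326 and 106 counts in KO and 217 and 197 in WT, and Med7, of the Mediator complex, had 378 and 146 in KO and 222 and 271 in WT. With 500 or more counts the median of that family was 0.095, where with 100 or more it was -0.06. Chromatin modifiers had 2 of 131 lower and none higher.

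Ubiquitin ligases and deubiquitinases had 5 of 220 higher (2.27%) and 6 lower (2.73%), with Usp49 at 100 and 251 counts (112 and 313 in WT) and Otulin at 173 and 52 (151 and 130 in WT). Solute carriers had 5 of 105 higher (4.76%) and 6 lower (5.71%); Slc1a2, a glutamate transporter, had 181 and 520 counts in KO and 186 and 548 in WT, and Slc30a2, a zinc transporter, had 558 and 213 in KO and 570 and 141 in WT. Protein kinases and phosphatases had 3 of 190 higher (1.58%) and 4 lower (2.11%), and small GTPases with their regulators 1 of 119 higher (0.84%) and 2 lower (1.68%). Splicing factors (90 genes), cilium and axoneme genes (44), centrosome genes (51), nuclear pore genes (25) and translation factors (30) had none in either direction. The ribosomal name pattern had 6 of 23 higher (26.1%) and 1 lower (4.35%), but it also takes in pseudogenes and S6 kinases; the 15 ribosomal protein genes proper had a median log2 ratio of 0.61, with 4 higher and 1 lower. Their counts were low, with Rpl19 at 128 and 341, and such genes share reads with pseudogenes. The 4 members of the pattern with 500 or more counts had a median of -0.32.

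Gene classes differed in their median and in their share past 2-fold. The median log2 ratio was -0.04 for 6115 protein-coding genes, 0.31 for 194 lincRNAs, 0.22 for 109 antisense RNAs, 0.20 for 147 processed pseudogenes and 0.55 for 30 unprocessed pseudogenes. In WT the medians of these classes were -0.07, 0.66, 0.56, 0.43 and 0.89. In KO it was 0.30 for 26 transcribed processed pseudogenes, 0.57 for 19 transcribed unprocessed pseudogenes and 0.13 for 16 sense intronic RNAs. It was 0.07 both for 56 processed transcripts and for 48 genes of the class TEC, and -0.32 for 10 bidirectional promoter lncRNAs. At least 2-fold higher in KO RO were 30 of the 194 lincRNAs (15.5%) and 182 of the protein-coding genes (2.98%). At least 2-fold lower were 5.15% of the lincRNAs, 8.16% of the processed pseudogenes, 17.9% of the processed transcripts (14.3% were higher) and 3.79% of the protein-coding genes. These shares depend on counts: of all genes 21.0% lay past 2-fold at 100 to 300 counts and 1.84% at 1000 to 3000. In both KO libraries 143 of the 194 lincRNAs had 100 or more counts, and 5572 of the 6115 protein-coding genes. The classes were not matched for counts, so class and count level cannot be told apart in these shares. Whether the counting used strand is not given in the sources used here, so reads of antisense RNAs and their partners cannot be told apart, and counts of pseudogenes are uncertain. The 162 named X-linked genes had a median of 0.10, with 14 higher (8.64%) and 6 lower (3.70%), against -0.02 for autosomal genes; with 500 or more counts the X-linked median was -0.12.

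Among named genes with 1000 or more counts in either KO library the highest ratios were those of Gm14151 (432 and 1190 counts) and Gm14147 (663 and 1820 counts), near neighbours in name on chromosome 2 whose reads may be shared. Ms4a14, a membrane protein, had 979 counts in KO PA and 2674 in KO RO, against 599 and 862 in WT, a KO ratio of 2.70 (2.51 to 2.91). Hspa1l, a testis-rich heat shock protein, had 655 and 1510 counts in KO and 109 and 302 in WT. The noncoding A930030B08Rik had 421 and 1075 in KO and 841 and 2155 in WT, and the pseudogene 1700019M22Rik 676 and 1571 in KO and 518 and 801 in WT. Smcp and Tnp2 complete the 8 highest. In all 8 the WT ratio was above 1 as well, with WT log2 ratios from 0.26 for Smcp to 1.48 for Hspa1l.

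On the lower side the most abundant gene was Neat1, the RNA scaffold of nuclear paraspeckles, with 46430 counts in KO PA and 17471 in KO RO, against 122259 and 20461 in WT. The lowest ratio was that of 1700029M20Rik, a lincRNA, with 1760 and 453 counts in KO and 1184 and 1225 in WT, or 3.93-fold lower in RO (3.55 to 4.37). Gm5878, with 1555 and 506 counts in KO and 1114 and 1295 in WT, was likewise low in KO RO alone. 4933414I15Rik, with 1103 and 375 in KO and 478 and 481 in WT, was instead high in KO PA alone: its level was 102 CPM there, against 34.2 in KO RO, 40.7 in WT PA and 41.8 in WT RO. Irs2, an adaptor of insulin signalling, had 1021 and 386 in KO and 853 and 389 in WT. Fyn, a tyrosine kinase, had 1633 and 670 in KO and 1446 and 847 in WT. Cdc42ep3, an effector of the CDC42 GTPase, had 1795 and 666 counts in KO and 391 and 309 in WT, and Mro 1191 and 493 in KO and 873 and 685 in WT.

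With the lower limit of 100 counts in either KO library, and 10 or more in the other, the extremes were mostly thinly counted genes; genes with fewer than 10 in the other, such as Zbtb42, could lie further out. Gm8584 (16 and 182 counts), Gm21129, Gm6560, Gm15229 and Gm15937, all pseudogenes, were among the 8 highest, with log2 ratios from 2.50 to 3.34. The others were Pcdha4, Gm3149 and the lincRNA A430105J06Rik. The 8 lowest included Akr1b7, an aldo-keto reductase, with 120 and 12 counts in KO and 0 and 5 in WT. Serpina3g had 479 and 76 counts in KO and 1831 and 261 in WT, and Serpina3c 221 and 37 in KO and 396 and 76 in WT; these 2 serine protease inhibitors belong to a family of near copies. F630040K05Rik, Gm19353, Epha4, 9030624G23Rik and Cnnm1 complete them, with log2 ratios from -2.90 to -2.37.

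The m6A side of the comparison rests on the peak lists, each from 1 immunoprecipitated library over its input. The authors' fold of a peak is used only within its own list, since it depends on the depth of its libraries. The KO PA list held 9931 peaks in 6084 genes and the KO RO list 8846 peaks in 5581 genes, a ratio of 0.89 (0.87 to 0.92, counting error only). Median peak length in exons was 269 and 241 bases, and total length was 3297 and 2707 kb. Of the PA peaks 70.0% overlapped an RO peak on the same strand by at least 1 base, and of the RO peaks 81.1% overlapped a PA peak. When any peak in the same gene counted as a counterpart, 85.1% and 90.1% had one.

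Peaks without a counterpart at the other stage were weaker and shorter than peaks with one. In the PA list the median fold was 8.65 without and 16.9 with a counterpart in the authors' deposited table, and the median length 181 and 301 bases. In the RO list it was 8.15 and 14.0, and 180 and 271 bases. Of the 1668 RO peaks without a counterpart 12.7% missed a false discovery rate of 0.05, as did 5.10% of the 2979 PA peaks without one.

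The RO peaks without a counterpart lay less often in coding sequence and more often in the 3′ untranslated region (3′ UTR). Coding sequence held 38.2% of them (95% Wilson interval 35.9% to 40.6%, counting error only), against 52.4% (50.6% to 54.2%) of the PA peaks without a counterpart, a difference of -14.2 percentage points (-17.1 to -11.2). The 3′ UTR held 32.4% of the first and 20.4% of the second, a difference of 12.0 points (9.31 to 14.6). The 5′ UTR held 3.00% and 5.24%. Peaks with a counterpart had nearly the same classes in both lists, with 56.4% and 56.9% in coding sequence and 22.4% and 22.1% in the 3′ UTR. Over the whole lists the 3′ UTR share was 21.8% in PA and 24.0% in RO. Each class is the authors' single annotation of a peak.

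**Figure D4:**
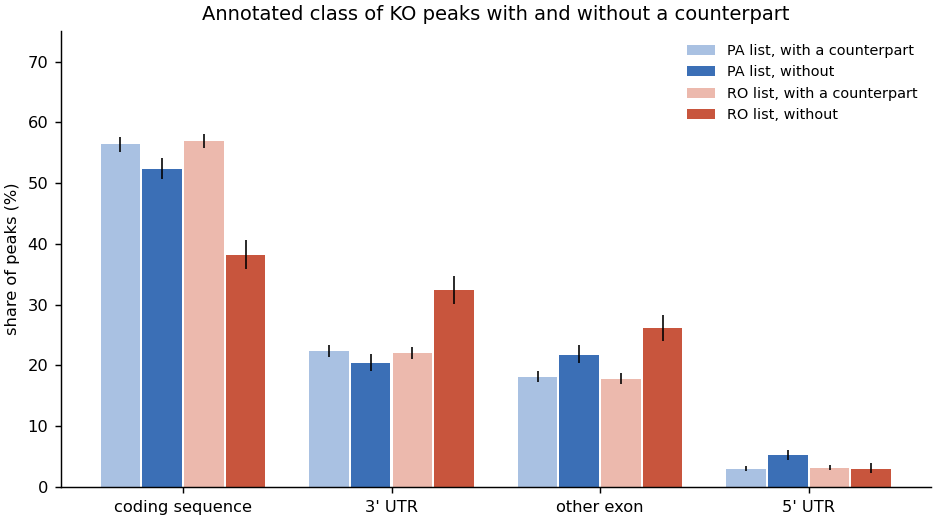
Share of peaks in each annotated class (percent, bars from 0; error bars, 95% Wilson intervals that cover counting error only) for KO PA peaks with (light blue) and without (blue) an overlapping KO RO peak, and KO RO peaks with (light red) and without (red) an overlapping KO PA peak. The dark red bars differ from the other 3 sets, at 38.2% in coding sequence and 32.4% in the 3′ UTR.

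Within genes that carried peaks at both stages the classes were largely kept. Of 3937 such genes with 100 or more counts in both KO libraries, 83.7% had the same set of classes in both lists. A coding-sequence peak was found in the PA list alone in 170 genes and in the RO list alone in 86. For the 3′ UTR the numbers were 177 and 163, and for the 5′ UTR 75 and 33. So the PA list held more classes that the RO list lacked for coding sequence and 5′ UTR, while the 3′ UTR was nearly even.

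The WT lists held a minority of the stage-only KO peaks. Of the 2979 PA-only peaks 25.4% overlapped a WT PA peak and 28.5% a WT RO peak, and 58.1% overlapped neither. Of the 1668 RO-only peaks 18.5% overlapped a WT PA peak and 27.5% a WT RO peak, and 62.7% neither. Peaks shared by both KO stages overlapped WT PA in 69.9% and WT RO in 66.4% of the PA-list peaks. The WT lists differ in length, with 7502 PA and 9418 RO peaks, and the PA-only peaks of KO were found in the WT list of their own stage no more often than in the other.

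Genes with a peak at 1 stage only had a median input ratio that was nearly level, though single genes differed. Among 6051 named genes with 100 or more counts in both KO libraries, 65.1% had a peak in both lists, 15% in the PA list only (906 genes), 6.66% in the RO list only (403 genes) and 13.3% in neither, that is, only in a WT list. The median log2 input ratio was -0.03 for genes with a peak at both stages, 0.03 for PA only and -0.03 for RO only. A log2 ratio under 0.5 in size was found in 76.5%, 70.9% and 68.7% of these groups. Of the 4479 genes with an input ratio under 0.5 in size on the log2 scale, 14.3% had a peak in PA only and 6.18% in RO only. Of the 102 genes at least 2-fold higher in RO these shares were 17.6% and 9.80%, and of the 117 at least 2-fold lower 15.4% and 7.69%. Genes with a peak at both stages had more reads, with medians of 596 counts in PA and 583 in RO, against 422.5 and 456.5 for PA only and 332 and 335 for RO only.

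By function, the share of genes with a peak in PA only was above that of all named genes (15%) in the lists of the acrosome, cilium, motors, manchette and tail, and 0 in meiotic recombination. Lists of other functions were above it too, among them ribosomal names (26.3% of 19), the synaptonemal complex (22.2% of 9), piRNA genes (22.2% of 18), translation factors (20.7% of 29), glycolysis (20% of 15), transcription machinery (17.7% of 62) and mRNA storage (16.7% of 60). The share with a peak in RO only, 6.66% over all named genes, was highest for piRNA genes among the lists plotted for stage-only peaks. Of 43 cilium and axoneme genes 10 had a peak in PA only and 2 in RO only; of 43 kinesin, dynein and myosin genes 9 and 1; of 22 acrosome genes 6 and 1; of 35 tail genes 7 and 2; and of 28 manchette genes 6 and 2. Of 32 meiotic recombination and repair genes none had a peak in PA only and 4 in RO only, while 25 had one at both stages. The 18 piRNA genes had 4 of each kind. Of 23 genes of the m6A machinery 16 had a peak at both stages and 1 at each stage only. The lists are short, and no difference between them was tested.

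**Figure D5:**
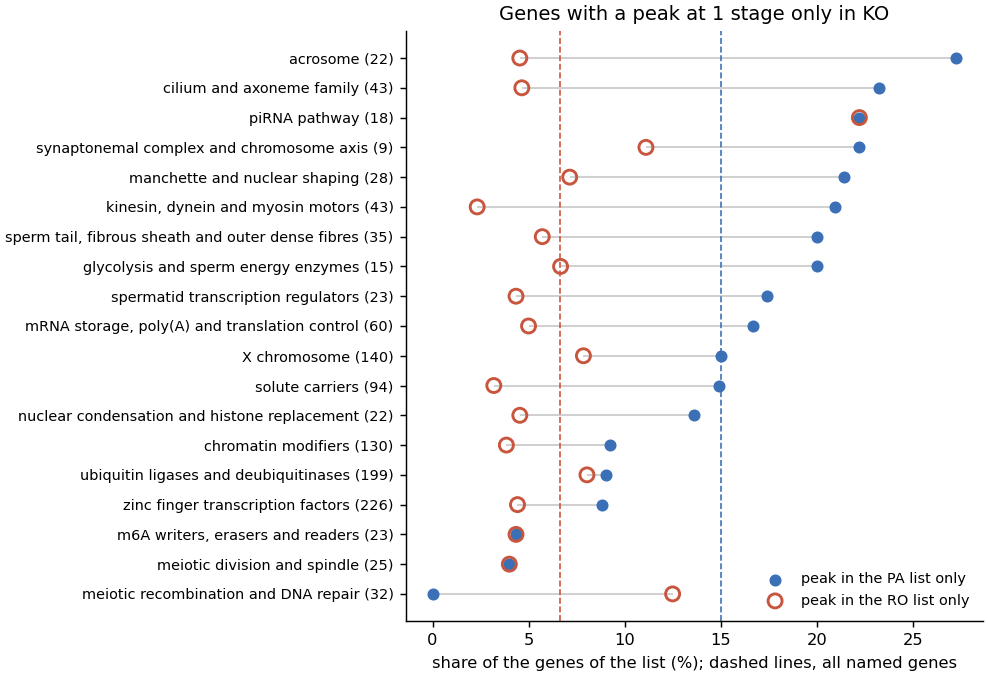
Share of the genes of each list (percent; number of genes in brackets) that had a peak in the KO PA list only (filled blue) or the KO RO list only (open red), for genes with 100 or more counts in both KO libraries; dashed lines mark all named genes, at 15% and 6.66%. Most lists have more genes in PA only; meiotic recombination has 0 in PA only and 4 of 32 in RO only, and piRNA genes have 4 of 18 in each.

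The 4 round spermatid markers with a peak at 1 stage only all had it in PA, while their RNA was higher in RO. In the authors' deposited table (mm10 positions) Prm2 had a PA peak in coding sequence at chr16:10791410-10791842 with a fold of 7.61, and no RO peak. Odf1 had a 5′ UTR peak in PA at chr15:38219322-38219531 with a fold of 7.14 in the authors' deposited table. Smcp, of the tail list and not of the markers, had a coding-sequence peak in PA at chr3:92584367-92586196, with a fold of 3.91 in the authors' deposited table, while its input counts were 1071 in PA and 2591 in RO. Akap3 and Tssk2 also had a peak in PA alone. Nutm1 was the condensation gene with a peak in RO only, in coding sequence with a fold of 10.3 in the authors' deposited table. Of the 21 round spermatid markers 12 had a peak at both stages, 4 in PA only, none in RO only and 5 in neither. Over all named genes the shares were 15% in PA only and 6.66% in RO only. With so few markers a departure from these shares cannot be read, and it was not tested. Higher RNA in RO was not particular to the 4 markers, as 18 of the 21 had a log2 ratio above 0.

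The 4 recombination genes with a peak in RO only were Exo1, an exonuclease of DNA end resection, Rad51ap2, Xrcc2, a factor of homologous recombination, and Hells, a chromatin remodeller. Their folds were 8.74, 6.99, 4.27 and 3.49 in the authors' deposited table, and their input counts differed little, with 349 and 319 for Exo1, 231 and 204 for Rad51ap2, 869 and 841 for Xrcc2 and 1856 and 1918 for Hells. The log10 false discovery rates in the authors' deposited table were -2.5 for Exo1, -1.3 for Rad51ap2, -1.68 for Xrcc2 and -4.08 for Hells. The Rad51ap2 peak thus lay at the limit of 0.05 and did not clearly pass it. The Xrcc2 peak had a counterpart in both WT lists, and the other 3 in neither. Of the piRNA list, Tcfl5, Exd2, Nbeal2 and Tdrd7 had a peak in PA only, and Henmt1, Tdrd5, Mybl1 and Stk31 in RO only. Tdrd7, a Tudor protein of the chromatoid body, had a PA coding-sequence peak of fold 7.14 in the authors' deposited table and 1676 and 1806 counts. Tdrd5, a Tudor protein of the same kind of granule, had an RO coding-sequence peak of fold 8.15 in the authors' deposited table and 1166 and 988 counts.

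In the axoneme family Bbs10, a chaperonin-like protein of the basal body (fold 21.8 in the authors' deposited table), Dnal4, a dynein light chain (15.4), Drc1, of the nexin-dynein regulatory complex (15.2), and Spef2, a central-pair protein (13.9), led the peaks in PA only. Their input counts were not lower in RO: Bbs10 had 127 and 246, Dnal4 128 and 247, Drc1 664 and 1037 and Spef2 1314 and 1778. Of the motors, Myo6, a myosin, had a PA coding-sequence peak of fold 46.6 in the authors' deposited table and 1424 and 1138 counts. Myo19, another myosin, was the 1 motor gene with a peak in RO only, with a fold of 24.5 in the authors' deposited table.

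The mRNA storage list had 10 of 60 genes with a peak in PA only (16.7%), close to the 15% of all named genes. Among them were Upf3a, of nonsense-mediated decay, and the decapping factors Edc3 and Dcp1b. Paip2b and Cnot6l were among those with a peak in RO only. The Cnot6l peak missed a false discovery rate of 0.05, with a log10 value of -1.2 in the authors' deposited table. The Edc3 peak overlaps one assigned to Clk3, a splicing kinase on the same stretch of chromosome 9, so its gene is uncertain. Ubiquitin genes were nearly even, with 18 of 199 in PA only (9.05%) and 16 in RO only (8.04%). Zinc finger genes had 20 and 10 of 226 (8.85% and 4.42%), chromatin modifiers 12 and 5 of 130 (9.23% and 3.85%), and solute carriers 14 and 3 of 94 (14.9% and 3.19%). The shares over all named genes were 15% and 6.66%. Of the chromatin modifiers Ino80, a remodelling ATPase, had an RO 3′ UTR peak of fold 36.1 in the authors' deposited table with 2026 and 1622 counts.

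The strongest single peaks without a counterpart lay in genes less than 2-fold apart in input, as did most named genes. Of the 6051 named genes with 100 or more counts in both KO libraries, 102 were at least 2-fold higher in RO and 117 lower. In PA the 5 highest in genes with 100 or more counts in both libraries were in Wdr60, Tacc1, R3hcc1l, Fmnl2 and Myh15, with folds of 193, 66.7, 59.0, 57.5 and 55.3 in the authors' deposited table. Tacc1, a centrosome-associated protein, had its PA peak in coding sequence at chr8:25182429-25182788, with 5319 and 4434 counts and a WT PA counterpart. In RO the 5 highest were in Dnmbp, Cyp27a1, Tbcel, Dclre1c and the lincRNA AC113031.6, with folds of 98.4, 72.8, 54.2, 43.1 and 40.8 in the authors' deposited table. Dnmbp, a GTPase exchange factor, had its RO peak in coding sequence at chr19:43901085-43901414, with 923 and 757 counts and a WT RO counterpart. Dclre1c, the Artemis nuclease of DNA repair, had its RO peak at chr2:3452954-3453403, with 674 and 672 counts and a WT PA counterpart. Of these 10 genes Wdr60, Tacc1, R3hcc1l, Myh15 and Dnmbp carried other peaks in the opposite list.

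The strongest peaks shared by both KO stages were in Mtmr12, Cep97, Lats2 and 2010111I01Rik, and all were found in both WT lists. Mtmr12, of the myotubularin family, had 1204 and 1320 input counts and folds of 319 in PA and 381 in RO in the authors' deposited table. Cep97, a centriole protein, had 539 and 496 counts and folds of 314 and 199 in the authors' deposited table. Lats2, a kinase of the Hippo pathway, is listed under 2 gene identifiers, 1 of them with 0 counts, and its peaks in the 5′ UTR had folds of 240 in PA and 194 in RO in the authors' deposited table. Their input log2 ratios lay between -0.19 and 0.23.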

How the data were processed

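Gene counts per input library were deposited by the authors as whole numbers, not normalized. The deposited peak lists give, per the file headers, exon blocks, a p-value, a log10 false discovery rate score and a fold of immunoprecipitated over input library. Per the submitters' processing notes the build was mm10 and cutadapt 2.5, HISAT2 2.1.0 and HOMER 4.10.4 were used; their roles, the peak caller and the counter are not given in the sources used here. Counts were scaled with TMM factors over the 4 inputs (edgeR 4.0.16, R 4.3.3) and log2 ratios formed with a prior count of 2; genes with 100 or more counts in either KO library were kept. Samples were grouped by title, 1 per group, so no test was run and past 2-fold is a description. Peaks were compared by exon blocks on the same strand (1 base or more), checked against bedtools 2.31.1 and, for ratios, tested on simulated data. Of 53465 genes 8733 have a symbol. Where a symbol is shared by several genes, the gene with more KO counts was used. Named genes were the 8 highest and 8 lowest ratios at 100 and at 1000 counts (10 or more in the other library), up to 4 members per list, stage markers, the 5 highest stage-only peaks per list and the 5 highest shared pairs; other list members named here were chosen after their values were seen. The comparison and the gene lists were chosen with earlier results of these data known.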

Additional observations from a re-analysis of the deposited data

Results flagged for a closer look

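Named genes with 100 or more counts in both genotypes were flagged where the ratio of RO over PA was at least 2-fold up in 1 genotype and at least 2-fold down in the other; the difference was not tested, as each is 1 pair of libraries. Esam, an endothelial adhesion protein, had a log2 ratio of 1.13 in KO and -1.49 in WT, with 122 and 272 counts in KO PA and KO RO and 290 and 100 in WT. Its WT side was that of its marker list: none of the 8 endothelial markers was above 0 in WT, with a median of -1.41. In KO 4 of the 8 were above 0. Pcdha4, a protocadherin whose gene shares exons with its neighbours, had 2.68 in KO and -1.01 in WT, from 20, 140, 195 and 94 counts. Rnf138rt1, an X-linked ubiquitin ligase retrogene, had -1.45 in KO and 1.25 in WT, from 119, 43, 65 and 155 counts.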

How the results depend on the processing

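Scaling by median-of-ratios, library totals or TMM of the KO pair, and a prior count of 0.5, left the number of genes past 2-fold within 1.5 times of the values above. A higher count limit lowered it: 287 genes were higher and 329 lower in RO with 200 or more counts in either library, 61 and 73 with 500 or more, and 205 and 229 with 100 or more in both. The list medians kept within their order-statistic intervals except, at 500 or more counts, transcription machinery (0.095), ribosomal names (-0.32) and the X chromosome (-0.12). Of 288 medians of 37 lists under these alternatives 16 turned sign; 2 of these had a main median of 0.1 or more in size, ribosomal names and, with 200 or more counts, oxidative phosphorylation (0.14 to -0.33, 4 genes left). The medians of tail genes and round spermatid markers stayed between 0.43 and 0.56 and between 0.41 and 0.63. The ratio of peak numbers was 0.86 at a fold of at least 5. In protein-coding genes alone, the share of stage-only peaks, RO minus PA, was 15.6 points in the 3′ UTR and 0.75 in other exons. Counterparts were found for 65.7% of PA and 78.7% of RO peaks at a fold of at least 5, 61.3% and 68.8% with a reciprocal overlap of 50%, 85.1% and 90.1% with any peak in the same gene, and 82.4% of RO peaks at a false discovery rate under 0.05. With 500 or more counts in both libraries 356 genes had a peak in PA only and 120 in RO only, of 2737. The stage-only counts of single lists moved by over 1.5 times in 32 of 58 cases at that limit, 18 at input ratios under 0.5, 9 at a fold of at least 5 and 2 at a false discovery rate under 0.05. Fewer genes are read under the stricter limits; the cause of the other shifts was not tested. The alternatives of protein-coding members and input ratios under 0.5, were added after seeing the data. No paired analysis was possible because each group is 1 sample. Depth limits genes near 100 counts most.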
